A study of Homo sapiens with 24 samples.

Results

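The 10 genes described here handle zinc in the cell: the 6 metallothioneins MT1E, MT1F, MT1G, MT1M, MT1X and MT2A, the zinc exporter SLC30A1, the zinc importers SLC39A6 and SLC39A10, and the zinc-sensing transcription factor MTF1. They were taken from the table of 60675 Ensembl identifiers by matching each identifier to its gene symbol, and all 10 were found. Of these, 8 were above the floor of 3 counts in every library, whereas MT1F and MT1M stayed at or below 3 counts in each of the 24 libraries. The cells were MIA PaCa-2, a line derived from a human pancreatic carcinoma. C/EBPδ-inducible cells carried a lentiviral Tet-On construct that expresses the CEBPD cDNA once doxycycline is added, together with the fluorophore mVenus, and were a pool of 3 clones. CTRL cells carried the Tet-On construct without the cDNA, together with mCherry. Each line was sequenced as rRNA-depleted total RNA at 0, 8, 24 and 48 h of 2 µg/mL doxycycline, with 3 replicate wells per group, giving 8 groups. The sample labels list that dose at 0 h as well, but the study describes cells without doxycycline, and the 0 h wells were read as untreated.

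Metallothioneins are small, cysteine-rich proteins that hold zinc and copper ions in clusters of thiolates and buffer the free metal of the cytosol. When free zinc rises, MTF1 moves to the nucleus and binds metal response elements, short motifs in the promoters of the metallothionein genes and of SLC30A1. SLC30A1 (ZnT1) carries zinc out of the cytosol across the plasma membrane. SLC39A6 (ZIP6) and SLC39A10 (ZIP10) are related importers that bring zinc in and can form a complex with each other. Metallothionein genes also respond to glucocorticoids and to oxidative and heavy-metal stress.

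The 6 metallothioneins lie in the metallothionein cluster on chromosome 16, where 16 listed genes and pseudogenes span 119 kb (GRCh38, GENCODE release 44). All 6 are protein-coding genes, and their counts are over exons. MT2A (ENSG00000125148) is at chr16:56608584-56609497 on the plus strand, MT1E (ENSG00000169715) at chr16:56625475-56627112, MT1M (ENSG00000205364) at chr16:56632659-56633981, MT1F (ENSG00000198417) at chr16:56657731-56660698 and MT1X (ENSG00000187193) at chr16:56682470-56684196, all on the plus strand. MT1G (ENSG00000125144) is at chr16:56666730-56668065 on the minus strand. The other members lie elsewhere. SLC30A1 (ENSG00000170385) is at chr1:211571568-211579161 and MTF1 (ENSG00000188786) at chr1:37809574-37859592, both on the minus strand of chromosome 1. SLC39A6 (ENSG00000141424) is at chr18:36108531-36129385 on the minus strand, and SLC39A10 (ENSG00000196950) at chr2:195575977-195737702 on the plus strand.

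The 250 bases before the transcription start are shown for the 3 members whose genes are textbook MTF1 targets and whose levels moved in different ways below. The sequences are from RefSeq (GRCh38.p14), are printed 5′ to 3′ on the strand of the gene, and end at the base before the start. Capitals mark every match, on either strand, to the metal response element core, searched as TGCACNC and TGCGCNC, with overlapping matches counted separately.
MT2A, chr16:56608334-56608583, plus strand: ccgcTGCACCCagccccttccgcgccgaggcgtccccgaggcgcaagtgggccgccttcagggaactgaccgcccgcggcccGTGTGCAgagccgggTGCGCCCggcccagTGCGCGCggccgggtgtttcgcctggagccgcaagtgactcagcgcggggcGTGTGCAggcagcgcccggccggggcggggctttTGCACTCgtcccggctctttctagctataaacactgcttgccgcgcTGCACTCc
MT1X, chr16:56682220-56682469, plus strand: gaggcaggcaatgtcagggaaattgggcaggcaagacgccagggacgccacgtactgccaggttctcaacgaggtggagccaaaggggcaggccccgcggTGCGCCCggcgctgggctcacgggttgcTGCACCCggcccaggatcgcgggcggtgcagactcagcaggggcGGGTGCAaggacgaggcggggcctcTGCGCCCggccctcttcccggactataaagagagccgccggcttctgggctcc
SLC30A1, chr1:211579162-211579411, minus strand: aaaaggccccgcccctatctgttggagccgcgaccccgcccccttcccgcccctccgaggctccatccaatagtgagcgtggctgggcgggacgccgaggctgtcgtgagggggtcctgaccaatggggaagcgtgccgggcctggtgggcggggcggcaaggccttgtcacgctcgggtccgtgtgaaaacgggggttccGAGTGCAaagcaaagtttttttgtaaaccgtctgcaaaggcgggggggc
The MT2A window holds 7 matches, the MT1X window 4 and the SLC30A1 window 1. Of 35116 RefSeq promoter windows of the same length, 24.8% hold at least 1 match and 6.48% hold 2 or more. SLC39A6 holds 1 match, and neither MTF1 nor either of the 2 SLC39A10 starts holds any. The C/EBP motif TTGCNNAA, also searched on both strands, is in both SLC39A10 windows with 1 match each, in none of the other windows of these members, and in 9.05% of all windows. No window of these members held both motifs, so an overlap of their matches could not occur. These matches describe letters, not binding. MT1E, MT1F, MT1G and MT1M have no promoter entry in the table that was used.

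The libraries held 12731237 to 22598595 counts, with a median of 18959363.5. Levels are given as CPM, counts relative to a TMM-corrected library total, where 3 counts correspond to 0.130 to 0.236 CPM. CEBPD checked the labels: it was at 3.55 ± 0.129 CPM in CTRL cells and 307 ± 12.6 CPM in C/EBPδ-inducible cells at 24 h (SD, n = 3, as for every mean below). It was already 5.43-fold higher in C/EBPδ-inducible cells at 0 h, and the construct and the endogenous gene are counted together. As background in the same libraries, the lines also differed in epithelial markers. Their 4 genes summed to 1904 to 2769 CPM in CTRL and 105 to 190.1 CPM in C/EBPδ-inducible cells. The sum was almost all KRT8 and KRT18, since EPCAM stayed at or below 2.29 CPM and CDH1 had at most 85 counts in any library. CDH1 did not follow the sum. It stayed at or below 1.94 CPM in CTRL cells, and its highest group mean, 4.75 CPM, was in C/EBPδ-inducible cells at 8 h. Its lowest group mean, 0.121 CPM, was in C/EBPδ-inducible cells at 0 h. The paper reports CDH1 as strongly raised by C/EBPδ. The 3 ductal markers summed to 334 to 397 and 72.7 to 122 CPM, and the mesenchymal marker VIM to 6595 to 7001 and 5348 to 6259 CPM. Of the ductal markers, KRT7 was rare and its ranges overlapped, at 0.0598 to 3.58 CPM in CTRL and 0.506 to 5.49 CPM in C/EBPδ-inducible cells. Of 3 fibroblast markers, COL1A2 was at 449 to 688 CPM in CTRL and 135 to 252 CPM in C/EBPδ-inducible cells, COL1A1 was below 2 CPM, and DCN had at most 1 count. PTPRC, PECAM1 and VWF, which mark leukocytes and endothelium, had at most 6 counts in any library. Whether these marker differences have a part in the differences of the members was not tested. The 3 wells of CTRL cells at 8 h differed more among themselves than those of any other group: over 4494 genes of at least 50 CPM the median coefficient of variation was 5.77%, against 2.25 to 4.82% in the other 7 groups.

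Per kilobase of exon, MT2A and MT1E were the most abundant members, with a mean over all libraries of 376 and 267 CPM per kilobase. Their group means ranged from 274 to 458 and from 207 to 310.3 CPM per kilobase, and MT2A was above MT1E in each of the 8 groups. SLC39A10 (40.9), SLC30A1 (31.2), MT1G (30.6), SLC39A6 (27.3) and MT1X (21.7 CPM per kilobase) followed. The group means ranged from 28.8 to 55.2 for SLC39A10 and from 15.6 to 27.8 CPM per kilobase for MT1X, which did not overlap, while the ranges of each pair of neighbours in this order overlapped. MTF1 was the lowest of the 8 members above the floor, at 11.04 CPM per kilobase, with group means from 8.21 to 13.5 that did not reach those of any other of the 8. The exon union takes in every annotated transcript of a gene. For MT2A and MT1X it covers the gene from start to end, 914 and 1727 bases, with no base left out as intron. For MT1E it covers 1052 bases, a part of the gene. The levels per kilobase and their order therefore depend on which transcripts are annotated. MT1F had 3 counts in all 24 libraries together and MT1M 11. At the floor of 3 counts in any library, both were too low to compare between groups.

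MT2A, the general metallothionein of most tissues, was lower in C/EBPδ-inducible than in CTRL cells at 0, 8 and 24 h. At 0 h the 3 CTRL libraries had 434, 398 and 412 CPM and the 3 C/EBPδ-inducible libraries 251, 276 and 259.6 CPM. At 24 h the values were 420.1, 416 and 419 CPM in CTRL and 271, 266 and 263 CPM in C/EBPδ-inducible cells. The groups did not overlap at either time, and the spread within a group was a small part of the gap. The log2 fold change of C/EBPδ-inducible against CTRL cells was -0.67 ± 0.035 (SE, adjusted p = 4.9e-12) at 0 h, -0.70 ± 0.057 (SE, adjusted p = 1.7e-06) at 8 h and -0.66 ± 0.029 (SE, adjusted p = 2.6e-16) at 24 h. At 48 h the difference was smaller: CTRL cells had 394, 368 and 373 CPM and C/EBPδ-inducible cells 347, 350.0 and 359.7 CPM, with a log2 fold change of -0.11 (95% CI -0.19 to -0.017, adjusted p = 0.046) that missed the threshold although every C/EBPδ-inducible library was still below every CTRL library. In bulk RNA, fewer cells that express a gene and less of its RNA per cell cannot be told apart.

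MT1E, the second metallothionein by level per kilobase, was also lower in C/EBPδ-inducible cells at 0, 8 and 24 h, by a smaller margin. It had 307 ± 12.2 CPM in CTRL and 260.4 ± 10.5 CPM in C/EBPδ-inducible cells at 0 h, and 326 ± 4.09 and 284 ± 5.72 CPM at 24 h. The log2 fold changes were -0.25 ± 0.034 (SE, adjusted p = 4.1e-06) at 0 h, -0.29 ± 0.054 (SE, adjusted p = 0.0010) at 8 h and -0.21 ± 0.030 (SE, adjusted p = 1.6e-06) at 24 h. At 48 h the groups overlapped, with CTRL libraries at 287, 306 and 267 CPM and C/EBPδ-inducible libraries at 286, 296 and 315 CPM.

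MT1G and MT1X differed between the lines in the other direction, although they belong to the same cluster. Both were far less abundant. At 48 h MT1G had 14.7, 14.03 and 15.1 CPM in CTRL and 31.4, 29.9 and 27.6 CPM in C/EBPδ-inducible cells, and MT1X had 26.8, 27.2 and 27.02 and 42.3, 45.4 and 42.1 CPM. Neither gene's groups overlapped at that time. The log2 fold change of MT1G was 0.48 ± 0.062 (SE, adjusted p = 2.5e-07) at 24 h and 1.02 ± 0.079 (SE, adjusted p = 1.6e-07) at 48 h, a 2.02-fold higher level. For MT1X it was 0.26 ± 0.055 (SE, adjusted p = 5.7e-04) at 0 h, 0.38 ± 0.052 (SE, adjusted p = 6.6e-07) at 24 h and 0.68 ± 0.064 (SE, adjusted p = 1.1e-06) at 48 h. MT1G missed the threshold at 0 h with 0.17 (95% CI 0.037 to 0.31, adjusted p = 0.031) and at 8 h with 0.25 (95% CI 0.055 to 0.45, adjusted p = 0.039), and MT1X missed it at 8 h with -0.021 (95% CI -0.19 to 0.15, adjusted p = 0.85). The MT1X call at 0 h was lost when the third CTRL well was left out (log2 fold change 0.22, adjusted p = 0.011).

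**Figure D1:**
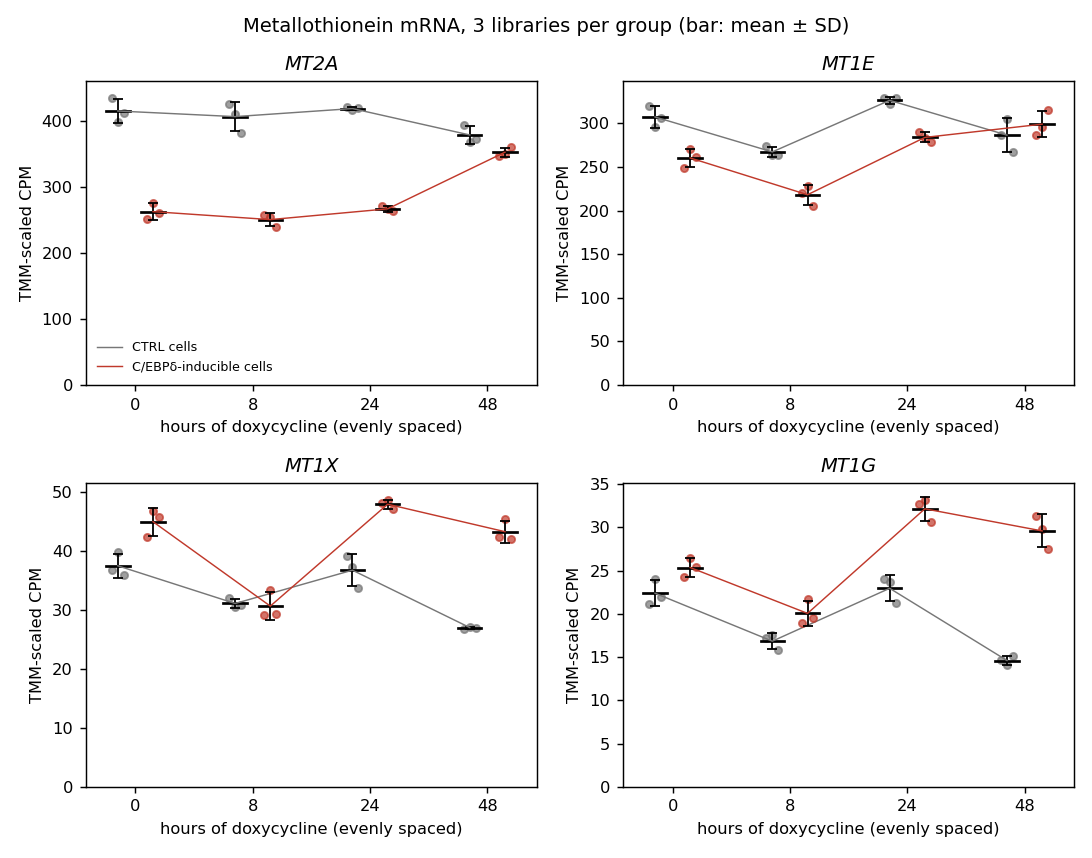
Level of MT2A, MT1E, MT1X and MT1G in TMM-scaled CPM (vertical axes, from 0) against hours of doxycycline (horizontal axes, times evenly spaced), with a point for each library, bars for mean ± SD over 3 libraries and lines joining the means of CTRL (grey) and C/EBPδ-inducible cells (red). MT2A and MT1E were lower in C/EBPδ-inducible cells up to 24 h and near the CTRL level at 48 h, while MT1X and MT1G were higher in C/EBPδ-inducible cells at 24 and 48 h.

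The summed level of the metallothionein members followed MT2A and MT1E. In CTRL cells the sum of the 6 genes was 782 ± 27.6 CPM at 0 h, 721 ± 28.2 at 8 h, 804 ± 6.97 at 24 h and 706 ± 21.4 CPM at 48 h. In C/EBPδ-inducible cells it was 593 ± 26.1, 519 ± 23.1, 631 ± 11.4 and 724 ± 19.1 CPM at the same times. The lines did not overlap at 0, 8 and 24 h and overlapped at 48 h, where the CTRL libraries had 722, 715 and 682 CPM and the C/EBPδ-inducible libraries 707, 721 and 745 CPM. MT2A made up 51.99% of the sum in CTRL and 42.3% in C/EBPδ-inducible cells at 24 h, and MT1E 40.6 and 45.0%. In C/EBPδ-inducible cells at 24 h, MT1E thus had a larger share than MT2A, which was so in no other group mean. MT1X and MT1G together stayed the minor part, with MT1X at 4.57 and 7.60% and MT1G at 2.85 and 5.10%. These sums are a description and were not tested.

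SLC30A1, the exporter whose promoter is shown above, was higher in C/EBPδ-inducible cells at all 4 times. At 8 h CTRL cells had 108, 161 and 201 CPM and C/EBPδ-inducible cells 284, 308 and 288 CPM. The CTRL wells at that time lay further apart than the highest of them from the lowest C/EBPδ-inducible well, but the groups did not overlap. The log2 fold change was 0.54 ± 0.066 (SE, adjusted p = 9.7e-07) at 0 h, 0.90 ± 0.16 (SE, adjusted p = 8.0e-04) at 8 h, 0.60 ± 0.049 (SE, adjusted p = 9.2e-11) at 24 h and 1.03 ± 0.14 (SE, adjusted p = 2.6e-05) at 48 h. SLC30A1 was also the member with the widest spread between wells. Its median coefficient of variation over the 8 groups was 9.24%, which exceeded that of 99.3% of the 4494 genes of at least 50 CPM, where the median gene had 3.11%. The per-gene analysis of variance estimates the spread of each gene from the values of that gene alone. It kept the SLC30A1 call at 24 h and lost it at 0, 8 and 48 h (adjusted p = 0.032, 0.062 and 0.033).

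The 2 importers differed between the lines in opposite directions. SLC39A10 was higher in C/EBPδ-inducible cells at all 4 times, with 208, 202 and 187 CPM in CTRL and 326, 353 and 355 CPM in C/EBPδ-inducible cells at 24 h. Its log2 fold change was 0.39 ± 0.033 (SE, adjusted p = 5.5e-09) at 0 h, 0.72 ± 0.091 (SE, adjusted p = 6.3e-05) at 8 h, 0.79 ± 0.038 (SE, adjusted p = 1.7e-15) at 24 h and 0.67 ± 0.062 (SE, adjusted p = 9.4e-07) at 48 h. SLC39A6, its partner in the importer complex, was lower in C/EBPδ-inducible cells at 0, 24 and 48 h, with 110.0, 107 and 106 CPM in CTRL and 84.8, 86.9 and 85.4 CPM in C/EBPδ-inducible cells at 24 h. Its log2 fold changes at those times were -0.35 ± 0.038 (SE, adjusted p = 1.8e-07), -0.33 ± 0.037 (SE, adjusted p = 1.7e-08) and -0.30 ± 0.059 (SE, adjusted p = 8.0e-04). At 8 h the groups overlapped, and the interval of the difference was -0.18 to 0.17 on the log2 scale.

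MTF1, the zinc sensor itself, was higher in C/EBPδ-inducible cells at all 4 times with little spread between wells. It had 82.01, 86.03 and 82.9 CPM in CTRL and 95.4, 99.9 and 99.6 CPM in C/EBPδ-inducible cells at 0 h, and 62.9, 68.2 and 65.5 and 89.5, 86.98 and 87.03 CPM at 48 h. The log2 fold change was 0.22 ± 0.037 (SE, adjusted p = 3.5e-05) at 0 h, 0.37 ± 0.050 (SE, adjusted p = 1.1e-04) at 8 h, 0.24 ± 0.038 (SE, adjusted p = 5.5e-06) at 24 h and 0.42 ± 0.055 (SE, adjusted p = 2.3e-05) at 48 h, and every CTRL library lay below every C/EBPδ-inducible library at each time. The MTF1 mRNA level does not measure where the protein is or whether it is bound.

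**Figure D2:**
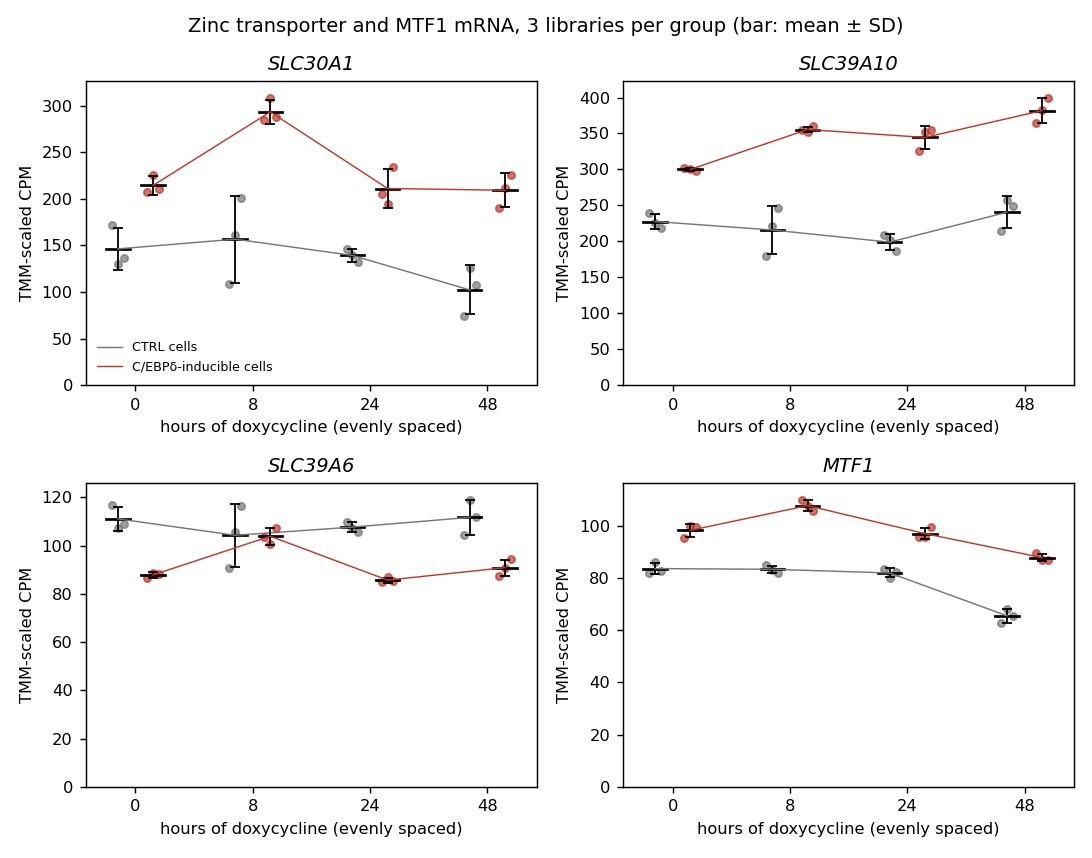
Level of SLC30A1, SLC39A10, SLC39A6 and MTF1 in TMM-scaled CPM (vertical axes, from 0) against hours of doxycycline (horizontal axes, times evenly spaced), drawn as for the metallothioneins with a point for each library and bars for mean ± SD over 3 libraries. SLC30A1, SLC39A10 and MTF1 were higher in C/EBPδ-inducible cells (red) at each time, SLC39A6 was lower except at 8 h, and the 3 CTRL wells at 8 h were widely spread for the 3 transporters.

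Many genes differed between the lines, and the number of members called is given beside the share of all genes called. At 0 h, 4 members had more mRNA in C/EBPδ-inducible cells and 3 had less, where 20% of all tested genes were higher and 23.9% lower. At 8 h, 3 were higher and 2 lower (background 14.3% and 17.4%). At 24 h, 5 were higher and 3 lower (background 21.5% and 25.3%), and at 48 h, 5 were higher and 1 lower (background 17.6% and 20.7%). The median log2 fold change of the 8 tested members was 0.31 at 24 h, beside 0.0080 over all genes. C/EBPδ-inducible and CTRL cells are separate transduced populations, and at a single time the difference of the populations and that of CEBPD expression cannot be told apart. Under the analysis of variance, the calls of MT1E, MT1X and SLC30A1 at 0 h, of MT1E, SLC30A1 and SLC39A10 at 8 h, of MT1X at 24 h, and of SLC30A1 and SLC39A6 at 48 h were lost. At 8, 24 and 48 h every call of a member was kept whichever single library was left out.

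**Figure D3:**
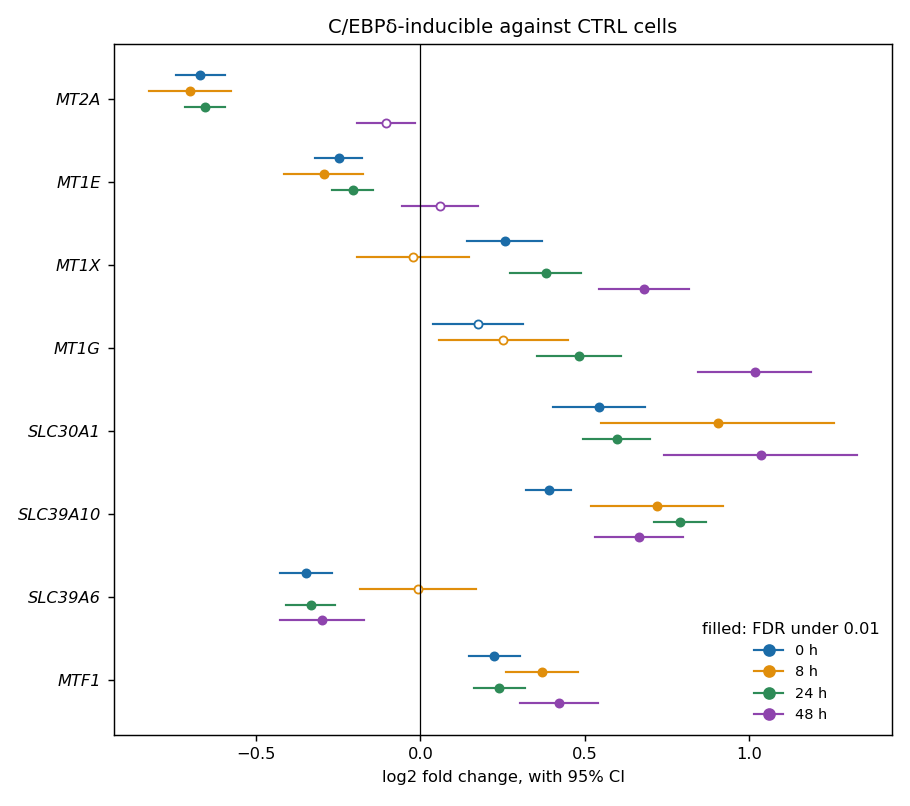
Log2 fold change of C/EBPδ-inducible against CTRL cells (horizontal axis) for each of the 8 tested members (vertical axis) at 0, 8, 24 and 48 h, with 95% confidence intervals from the edgeR fit and filled points for an FDR under 0.01. MT2A and MT1E lie left of 0 up to 24 h, SLC39A6 lies left of 0 except at 8 h, and SLC30A1, SLC39A10 and MTF1 lie right of 0 at all 4 times.

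The change with time in CTRL cells, which carry no CEBPD cDNA, served as the reference for doxycycline and time in culture. At 8 h, no member passed in either direction with edgeR (background 0.905% and 0.793%), none passed with DESeq2, and 3 of the 8 had an unadjusted p under 0.05. Leaving out the first CTRL well at 8 h brought MT1E and MT1G past the threshold, at -0.20 (adjusted p = 0.0090) and -0.41 (adjusted p = 0.0099). At 24 h, no member was higher and SLC39A10 alone was lower (background 2.81% and 3.25%), from 228 ± 10.7 to 199 ± 11.04 CPM, with a log2 fold change of -0.19 ± 0.040 (SE, adjusted p = 0.0031). That call was lost without the second CTRL well at 24 h (adjusted p = 0.020), without replicate 3 (adjusted p = 0.036), in a model of all 24 libraries and under the analysis of variance.

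By 48 h, CTRL cells had lower MT1G, MT1X and MTF1. MT1G went from 21.1, 24.1 and 21.99 CPM at 0 h to 14.7, 14.03 and 15.1 CPM, and its log2 fold change was -0.62 ± 0.082 (SE, adjusted p = 7.5e-05). MT1X went from 36.7, 39.8 and 35.9 to 26.8, 27.2 and 27.02 CPM, at -0.48 ± 0.066 (SE, adjusted p = 1.0e-04). The libraries at 48 h were all below those at 0 h for both genes. MTF1 fell by the smaller log2 fold change of -0.36 ± 0.053 (SE, adjusted p = 1.7e-04), from 83.6 ± 2.12 to 65.6 ± 2.65 CPM. No member was higher at 48 h (background 15.2%), and 3 were lower (background 14.7%). SLC30A1 missed the threshold with -0.53 (95% CI -0.85 to -0.20, adjusted p = 0.013), and its wells at 48 h were far apart, at 73.7, 126 and 107 CPM. It passed without the first of these wells (log2 fold change -0.34, adjusted p = 0.0081) and without the second (-0.70, adjusted p = 0.0013). MT2A missed it with -0.14 (95% CI -0.23 to -0.038, adjusted p = 0.027) and passed without the first well (adjusted p = 0.0033).

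In C/EBPδ-inducible cells, the transporters were higher and MT1E, MT1G and MT1X lower at 8 h of doxycycline than at 0 h. SLC30A1 rose from 207, 226 and 211 CPM at 0 h to 284, 308 and 288 CPM at 8 h, a log2 fold change of 0.45 ± 0.036 (SE, adjusted p = 2.8e-09). SLC39A10 rose from 300.0 ± 1.93 to 356 ± 4.04 CPM (0.24 ± 0.028 SE on the log2 scale, adjusted p = 7.7e-07), SLC39A6 from 87.8 ± 1.12 to 104 ± 3.49 CPM (0.23 ± 0.033 SE on the log2 scale, adjusted p = 6.6e-06), and MTF1 from 98.3 ± 2.52 to 108 ± 2.04 CPM (0.13 ± 0.032 SE on the log2 scale, adjusted p = 0.0030). Exporter, both importers and sensor were all called higher. The interaction of line and time at 8 h missed the threshold for SLC30A1, SLC39A6, SLC39A10 and MTF1 (adjusted p = 0.34, 0.060, 0.096 and 0.20). MT1X fell from 42.3, 46.8 and 45.8 to 29.2, 33.4 and 29.4 CPM (-0.56 ± 0.056 SE on the log2 scale, adjusted p = 6.5e-08), the largest fall of a member at this time. MT1G and MT1E fell by 0.34 and 0.26 on the log2 scale (adjusted p = 3.0e-04 and 7.8e-06). In CTRL cells at the same time the log2 fold changes of these 3 genes were -0.24 for MT1X, -0.38 for MT1G and -0.18 for MT1E, which missed the threshold there but were called lower in the model of all 24 libraries (adjusted p = 0.0039, 3.8e-04 and 0.0042), and no interaction of these 3 genes passed at 8 h. MT2A missed the threshold with -0.075 (95% CI -0.15 to 0.00059, adjusted p = 0.11). In all, 4 members were higher and 3 lower, where 14.6% of all genes were higher and 15.8% lower. The SLC30A1 and SLC39A10 calls were lost in a model of all 24 libraries (adjusted p = 0.028 and 0.014), whose estimate of the spread includes CTRL cells at 8 h, and the other 5 calls were lost under the analysis of variance. MTF1 was also lost with DESeq2 (adjusted p = 0.012), and without the first C/EBPδ-inducible well at 0 h or at 8 h (adjusted p = 0.021 and 0.023).

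Of the members called at 8 h, SLC39A10 alone was called in the same direction at 24 h. At that time SLC30A1 was at 205, 194 and 234 CPM, overlapping its 0 h libraries, with a log2 fold change of -0.018 (95% CI -0.12 to 0.081, adjusted p = 0.83). SLC39A6 and MTF1 also overlapped their 0 h levels. MT1G was above its 0 h level, at 32.7, 33.2 and 30.6 CPM (0.34 ± 0.059 SE on the log2 scale, adjusted p = 1.0e-04), as was SLC39A10 at 326, 353 and 355 CPM (0.20 ± 0.032 SE on the log2 scale, adjusted p = 3.1e-05). MT1E rose by the small log2 fold change of 0.13 ± 0.032 (SE, adjusted p = 0.0044), which missed the threshold when the first or the third well of either time was left out, with adjusted p from 0.011 to 0.061. With these 3, no member was lower (background 7.33% higher and 8.14% lower). All 3 calls were lost under the analysis of variance, and those of MT1E and SLC39A10 in the model of all 24 libraries.

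At 48 h, MT2A rose in C/EBPδ-inducible cells, having passed the threshold at neither 8 nor 24 h. It went from 251, 276 and 259.6 CPM at 0 h to 347, 350.0 and 359.7 CPM at 48 h, a 1.33-fold level and a log2 fold change of 0.41 ± 0.032 (SE, adjusted p = 4.2e-11). The groups did not overlap, and the call was kept in all 13 alternative fits. SLC39A10 reached its highest group mean, 382 ± 17.4 CPM (0.34 ± 0.031 SE on the log2 scale, adjusted p = 9.6e-10). MT1E and MT1G were above 0 h by 0.19 and 0.21 on the log2 scale (adjusted p = 5.1e-05 and 0.0066). MTF1 fell to 89.5, 86.98 and 87.03 CPM (-0.17 ± 0.037 SE on the log2 scale, adjusted p = 3.7e-04). The count was 4 higher and 1 lower (background 19.1% and 19.5%). The MT1G call was lost with DESeq2 (adjusted p = 0.028), in the model of all 24 libraries, under the analysis of variance, and without the first or the third well at 0 h or the first or the second well at 48 h (adjusted p from 0.016 to 0.027), and those of MT1E and MTF1 under the analysis of variance alone.

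Whether the change with time differed between the lines was tested as the interaction of line and time, which takes the 0 h difference out. At 8 h no member passed in either direction with edgeR (background 0.887% and 0.77%), none passed with DESeq2, and 4 of the 8 had an unadjusted p under 0.05. The intervals were wide, for SLC30A1 -0.091 to 0.79 on the log2 scale. With no filter on low counts, SLC30A1, SLC39A6 and SLC39A10 passed (adjusted p = 7.7e-05, 0.0013 and 2.4e-04). Without the third CTRL well at 8 h, SLC39A6 and SLC39A10 passed at 0.41 (adjusted p = 0.0022) and 0.42 (adjusted p = 0.0029). At 24 h, SLC39A10 alone passed, at 0.40 ± 0.055 (SE, adjusted p = 1.1e-05), having risen in C/EBPδ-inducible and fallen in CTRL cells, and no member was lower (background 2.86% and 2.98%). The call was lost in the model of all 24 libraries (adjusted p = 0.022) and under the analysis of variance (adjusted p = 0.012).

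At 48 h the 4 measured metallothioneins passed together, each with a change from 0 h that was more positive in C/EBPδ-inducible than in CTRL cells. This concerns the changes and not the levels at 48 h. At that time MT2A had 352 CPM in C/EBPδ-inducible and 378 CPM in CTRL cells, and the groups of MT1E overlapped. MT1G had the largest interaction at 0.82 ± 0.10 (SE, adjusted p = 2.6e-05), followed by MT2A at 0.54 ± 0.057 (SE, adjusted p = 2.6e-06), MT1X at 0.40 ± 0.084 (SE, adjusted p = 0.0037) and MT1E at 0.29 ± 0.068 (SE, adjusted p = 0.0093). The changes within the lines behind these values differed between the genes. MT2A and MT1E rose in C/EBPδ-inducible cells and missed the threshold in CTRL cells, while MT1X fell in CTRL cells and missed the threshold in C/EBPδ-inducible cells, and MT1G did both. With these 4 higher and no member lower, the background was 2.83% of all genes higher and 2.72% lower. None of the transporters nor MTF1 passed: SLC39A10 had 0.25 (95% CI 0.095 to 0.41, adjusted p = 0.038), SLC30A1 0.47 (95% CI 0.096 to 0.85, adjusted p = 0.11) and MTF1 0.17 (95% CI 0.047 to 0.30, adjusted p = 0.078). The MT2A and MT1G interactions passed in all 19 alternative fits. MT1E lost its call in 9 of 12 fits with a single library left out (adjusted p from 0.011 to 0.038), the fits that kept it being those without the first C/EBPδ-inducible or the first or second CTRL well at 48 h. MT1X lost it in 4, those without the first C/EBPδ-inducible or second CTRL well at 0 h or the second C/EBPδ-inducible or the third CTRL well at 48 h (adjusted p from 0.011 to 0.016), and both lost it under the analysis of variance. Without the second CTRL well at 48 h, SLC30A1 and SLC39A10 passed as well (adjusted p = 0.0092 and 0.0072). The comparisons with 0 h of a line share its 0 h libraries, and each interaction shares libraries with them, so these counts are not independent of each other.

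**Figure D4:**
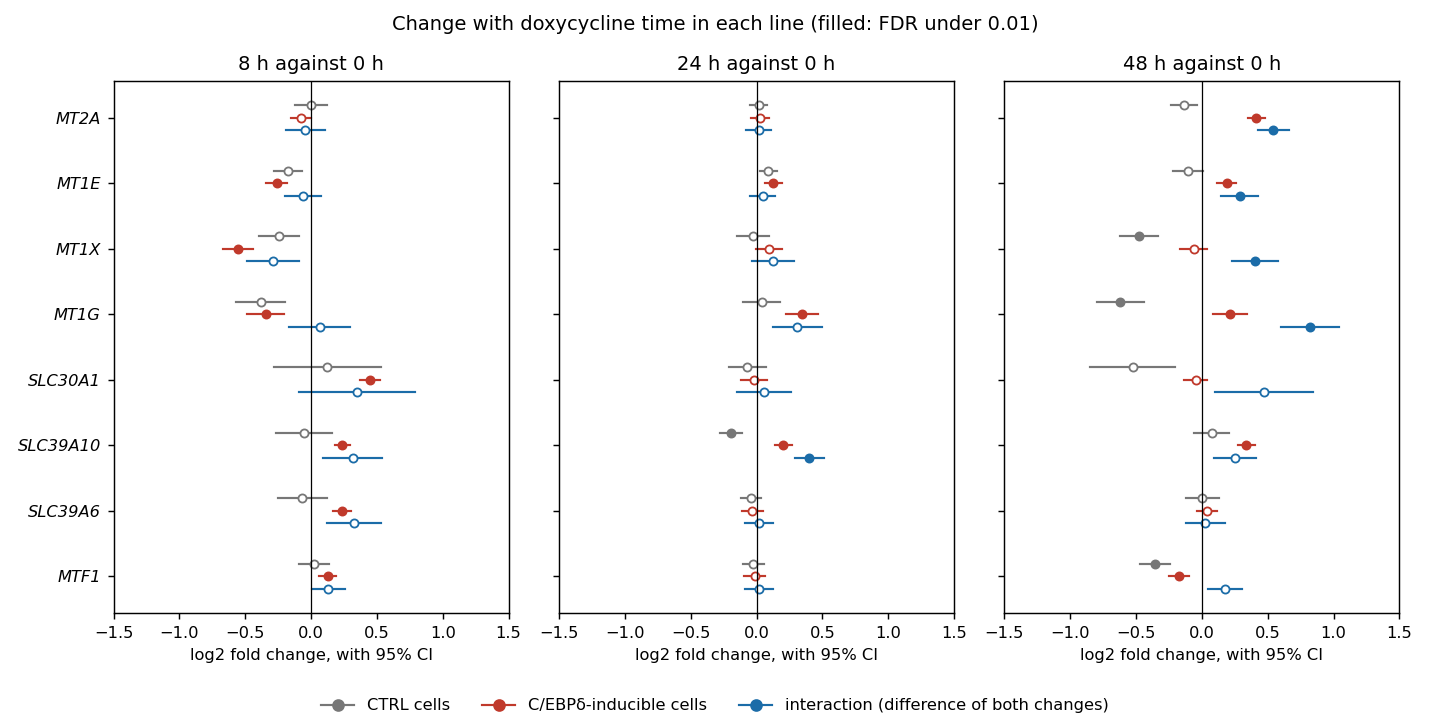
Log2 fold change against 0 h (horizontal axes) of each of the 8 tested members (vertical axis) in CTRL (grey) and C/EBPδ-inducible cells (red) and the difference of both changes (blue), at 8, 24 and 48 h from left to right, with 95% confidence intervals and filled points for an FDR under 0.01. At 48 h the blue points of MT2A, MT1E, MT1X and MT1G are filled and lie right of 0, between 0.29 and 0.82.

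Among the 12 other metallothionein genes and pseudogenes, MT1A and the pseudogene MT1L had enough counts to test, and each of the other 10, MT3 and MT4 among them, had at most 12 counts in any library. MT1L, which lies between MT2A and MT1E, was lower in C/EBPδ-inducible cells at all 4 times, with 25.3, 21.9 and 24.8 CPM in CTRL and 8.65, 10.1 and 8.94 CPM in C/EBPδ-inducible cells at 24 h (-1.38 ± 0.082 SE on the log2 scale, adjusted p = 1.4e-13). Every 50-base stretch of MT1L also occurs in the transcript of a newer identifier that overlaps it on the same strand. That identifier was not among those counted, so the MT1L count may hold reads of both. For the members, the share of 50-base stretches found in another gene's transcripts was 16.4% for MT1G, 18.7% for MT1X, 7.10% for MT1E and 4.48% for MT2A, and 0 for SLC30A1 and SLC39A10. Most of the MT1X share came from an identifier that overlaps it on the same strand and had no count in any library. Whether reads over that overlap were left out of both counts is not known. The reads were 50 bases long, and how reads that match several genes were counted is not given in the sources used here.

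In the wider transporter families the lines differed in both directions as well. Of 9 further ZIP importers that could be tested at 24 h, 1 had more mRNA and 3 had less in C/EBPδ-inducible cells, with a median log2 fold change of 0.043 beside 0.0080 over all genes, of which 21.5% were higher and 25.3% lower. SLC39A14 (ZIP14), which also carries iron and manganese, was the higher gene, at 305, 304 and 302 CPM in CTRL and 477, 467 and 473 CPM in C/EBPδ-inducible cells (0.63 ± 0.028 SE on the log2 scale, adjusted p = 2.4e-16). SLC39A8 (ZIP8), a close relative in the family and a carrier of zinc, manganese and cadmium, had the largest difference of any zinc transporter tested, at 177, 179 and 174 CPM in CTRL and 26.2, 30.4 and 29.99 CPM in C/EBPδ-inducible cells (-2.62 ± 0.046 SE on the log2 scale, adjusted p = 7.6e-25). Its interaction of line and time was called higher at 8 h, at 0.75 ± 0.12 (SE, adjusted p = 0.0019), and lower at 24 h, at -0.62 ± 0.072 (SE, adjusted p = 9.8e-07), and at 48 h, at -0.64 ± 0.090 (SE, adjusted p = 7.5e-05). Against 0 h, SLC39A8 was called lower at 8 h in CTRL cells alone, at 24 h in both lines and at 48 h in C/EBPδ-inducible cells alone. Its coefficient of variation was highest in CTRL cells at 8 h, at 16.1%. SLC39A1 and SLC39A9 were lower, at -0.52 and -0.44 on the log2 scale (adjusted p = 3.2e-10 and 1.5e-10). Of 6 further ZnT exporters, with the same background, SLC30A3 was higher (0.95 ± 0.17 SE on the log2 scale, adjusted p = 3.0e-05), and SLC30A4 (-1.05 ± 0.12 SE on the log2 scale, adjusted p = 5.2e-08) and SLC30A5 (-0.19 ± 0.040 SE on the log2 scale, adjusted p = 1.5e-04) were lower. SLC30A3 and SLC30A4 were rare, at 2.06 ± 0.208 and 10.6 ± 0.438 CPM in CTRL cells.

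**Figure D5:**
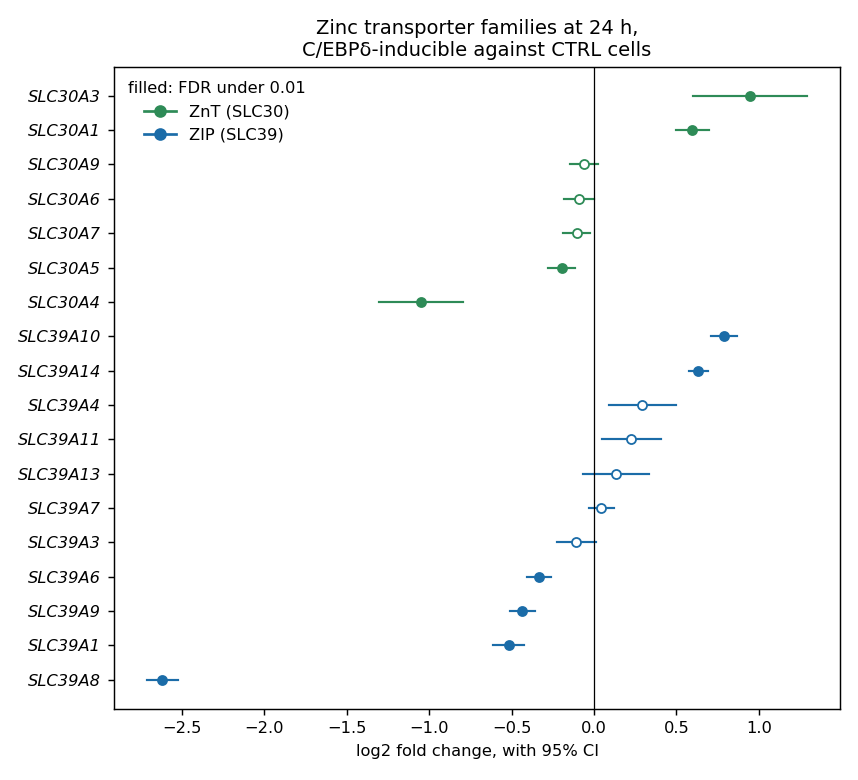
Log2 fold change of C/EBPδ-inducible against CTRL cells at 24 h (horizontal axis) for each tested gene of the ZnT (SLC30, green) and ZIP (SLC39, blue) families (vertical axis), with 95% confidence intervals and filled points for an FDR under 0.01. SLC39A8 stands far left at -2.62, while SLC30A3, SLC30A1, SLC39A10 and SLC39A14 are the called genes right of 0.

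As a description of pattern, the genes outside the members whose log2(CPM + 1) followed MT2A most closely over the 24 libraries, among 13566 genes, were the collagen receptor DDR1 (Pearson r = 0.945), the mitochondrial kinase AK4, the focal adhesion protein gene VCL, the pseudokinase gene TRIB2 and AK4P3 (r = 0.941), a pseudogene of AK4 with which it may share reads. For SLC30A1 they were the proteasome subunit PSMD12 (r = 0.976), the splicing factor TRA2B, the translation factor EIF3J, UBP1 and the ribosome assembly kinase RIOK2 (r = 0.955). Among the members, r with MT2A was 0.71 for MT1E, -0.34 for MT1X and -0.75 for SLC30A1, and r of SLC30A1 with MTF1 was 0.88. The 24 libraries fall into 2 lines and 4 times, so these values mix the differences between groups given above with the spread between wells. How much each contributes was not tested.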

How the data were processed

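RNA of 24 wells was measured, 3 per line and time, after rRNA depletion, as 50-base reads. The authors trimmed the reads with Trimmomatic, aligned them with HISAT2 to GRCh38 and counted genes with HTSeq; the submitters' processing notes give versions 0.36 and 2.3.4.3 for the first pair, and the paper's methods give other versions. The strand setting is not given in the sources used here. The deposited values are raw counts per Ensembl gene, and 37659 of 60675 genes had a count. Of the identifiers, 56558 matched GENCODE release 44, which gave symbols and positions.

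Counts were tested with edgeR 4.0.16 (R 4.3.3; filterByExpr, TMM, glmQLFit, glmQLFTest) over all genes passing the filter in the groups compared, with Benjamini-Hochberg adjustment over all of them and the study's FDR of 0.01. Every adjusted p in the text, unless another method is named, is from this quasi-likelihood test. The script was tested on simulated data. There were 13 comparisons: the lines at each of the 4 times, each line at 8, 24 and 48 h against 0 h, and the interaction of line and time. A member was tested where it passed the filter, which 8 of 10 did in all 13. The alternatives were DESeq2 1.42.0, RLE scaling, no filter, at least 10 counts in every library, all 24 libraries in one model, the replicate number as a block, the study's kind of test (analysis of variance per gene on log2(CPM + 1)), and leaving out each library in turn. CPM per kilobase divided CPM by the union of a gene's exons. Wells are the replicates, so p-values measure the spread between wells. The total count per library limits the precision of low genes, and the floor of 3 counts covers counting error only.

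Same-numbered wells deviated together, with all 3 correlations above 0.1, only for CTRL cells at 24 and 0 h (0.115, 0.131 and 0.141). No pair of wells agreed within counting noise, the chi-square per gene between replicates being 1.66 to 16.7 over 24 pairs. The members and the gene lists were chosen with earlier results of these data known. Named genes were all members, CEBPD, the 5 genes most correlated with MT2A and with SLC30A1 among genes of at least 1 CPM on average, and, of each list, up to 3 genes per direction with the largest change at 24 h between the lines or in the interaction. Promoters were read from RefSeq tables, and protein sequences of the members were not analysed here.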

Additional observations from a re-analysis of the deposited data

Results flagged for a closer look

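The change from 0 h differed between C/EBPδ-inducible and CTRL cells, by the test of the interaction of line and time, for SLC39A10 at 24 h and for the 4 measured metallothioneins at 48 h. For SLC39A10 the difference of the log2 changes at 24 h was 0.40, with 0.20 in C/EBPδ-inducible and -0.19 in CTRL cells. At 48 h it was 0.82 for MT1G (0.21 and -0.62), 0.54 for MT2A (0.41 and -0.14), 0.40 for MT1X (-0.064 and -0.48) and 0.29 for MT1E (0.19 and -0.11). Groups of 3 libraries were too small for a check of single outlying libraries.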

How the results depend on the processing

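Of 1496 refitted log2 fold changes of members, 1376 kept their direction and their side of the threshold, 61 lost a call, 23 gained one and 36 changed sign, none of the last called. With DESeq2, the number of genes called over all genes was 430 for CTRL 8 h (against 259) and 423 for the interaction at 8 h (against 269). With no filter on low counts, the number of members called was 1 for CTRL 8 h (against 0), 5 for CTRL 48 h (against 3) and 3 for the interaction at 8 h (against 0). With no filter on low counts, the number of genes called over all genes was 843 for CTRL 8 h (against 259) and 936 for the interaction at 8 h (against 269). With the replicate block, the number of genes called over all genes was 87 for CTRL 8 h (against 259) and 162 for the interaction at 8 h (against 269). Under the analysis of variance, the number of members called was 4 for the lines at 0 h (against 7), 2 for the lines at 8 h (against 5), 0 for CTRL 24 h (against 1), 2 for C/EBPδ-inducible 8 h (against 7), 0 for C/EBPδ-inducible 24 h (against 3), 2 for C/EBPδ-inducible 48 h (against 5), 0 for the interaction at 24 h (against 1) and 2 for the interaction at 48 h (against 4). Under the analysis of variance, the number of genes called over all genes was 3854 for the lines at 0 h (against 6726), 2317 for the lines at 8 h (against 4946), 4317 for the lines at 24 h (against 7360), 3167 for the lines at 48 h (against 5964), 1 for CTRL 8 h (against 259), 39 for CTRL 24 h (against 921), 1659 for CTRL 48 h (against 4583), 1239 for C/EBPδ-inducible 8 h (against 4693), 498 for C/EBPδ-inducible 24 h (against 2407), 2238 for C/EBPδ-inducible 48 h (against 5952), 82 for the interaction at 8 h (against 269) and 569 for the interaction at 24 h (against 948). In the model of all 24 libraries, the number of members called was 3 for CTRL 8 h (against 0), 0 for CTRL 24 h (against 1), 1 for C/EBPδ-inducible 24 h (against 3) and 0 for the interaction at 24 h (against 1). In the model of all 24 libraries, the number of genes called over all genes was 1229 for CTRL 8 h (against 259), 582 for CTRL 24 h (against 921), 3127 for C/EBPδ-inducible 8 h (against 4693), 441 for the interaction at 8 h (against 269) and 603 for the interaction at 24 h (against 948). Uncalled log2 changes that turned their sign were -0.0047 for MTF1, CTRL 8 h (no filter on low counts), -0.0040 for MTF1, CTRL 8 h (model of all 24 libraries), -0.0057 for SLC39A6, CTRL 48 h (DESeq2), -0.0056 for SLC39A6, CTRL 48 h (RLE scaling) and -0.0070 for SLC39A6, CTRL 48 h (no filter on low counts). With each library left out in turn, the calls ranged over 0 to 2 members for CTRL 8 h, 92 to 774 genes for CTRL 8 h, 0 to 2 members for CTRL 24 h, 505 to 1104 genes for CTRL 24 h, 3 to 5 members for CTRL 48 h, 0 to 2 members for the interaction at 8 h, 131 to 1196 genes for the interaction at 8 h and 2 to 6 members for the interaction at 48 h. The uncalled log2 changes that turned their sign there ranged over -0.087 to 0.013 for MT1X, the lines at 8 h, -0.11 to 0.073 for SLC39A6, the lines at 8 h, -0.051 to 0.035 for MT2A, CTRL 8 h, -0.10 to 0.32 for SLC30A1, CTRL 8 h, -0.16 to 0.014 for SLC39A6, CTRL 8 h, -0.16 to 0.053 for SLC39A10, CTRL 8 h, -0.0037 to 0.038 for MTF1, CTRL 8 h, -0.0036 to 0.092 for MT1G, CTRL 24 h, -0.070 to 0.030 for MT1X, CTRL 24 h, -0.012 to 0.045 for MT2A, CTRL 24 h, -0.14 to 0.058 for SLC30A1, CTRL 24 h, -0.041 to 0.046 for SLC39A6, CTRL 48 h, -0.0013 to 0.063 for MT2A, C/EBPδ-inducible 24 h, -0.10 to 0.035 for SLC30A1, C/EBPδ-inducible 24 h, -0.098 to 0.015 for SLC30A1, C/EBPδ-inducible 48 h, -0.012 to 0.057 for MT2A, the interaction at 24 h, -0.070 to 0.14 for SLC30A1, the interaction at 24 h, -0.016 to 0.043 for SLC39A6, the interaction at 24 h and -0.020 to 0.074 for SLC39A6, the interaction at 48 h. The replicate block changed no member call for CTRL cells at 24 h against 0 h, the comparison in which same-numbered wells deviated together. The labels do not say that same-numbered wells belong together. Elsewhere, the block ended the MT1E call at 24 h in C/EBPδ-inducible cells and in the interaction at 48 h (adjusted p = 0.015 and 0.015). The share of called genes that were higher in CTRL cells at 8 h was 53.3%, and 45.1% with DESeq2, 42.3% with no filter, 39.2% in the model of all 24 libraries and 70.1% with the block. In CTRL cells at 24 h it was 46.4%, and 69.2% under the analysis of variance, and in the interaction at 8 h 53.5%, and 64.96% with no filter. The cause of these differences was not tested. Depth limits MT1F and MT1M, whose counts allow no comparison.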

Other observations

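Lists of other genes that metals or metallothionein inducers are known to act on differed in both directions between the lines at 24 h, where over all genes 21.5% were higher and 25.3% lower, with a median log2 fold change of 0.0080. Of 9 copper handling genes, 2 had more mRNA and 4 had less in C/EBPδ-inducible cells, with a median log2 fold change of -0.057. ATP7A, a copper exporter of the Golgi and plasma membrane, was higher (0.63 ± 0.063 SE on the log2 scale, adjusted p = 2.9e-09), whereas the related exporter ATP7B was lower (-0.96 ± 0.061 SE on the log2 scale, adjusted p = 6.3e-13), as was the copper importer SLC31A1 (-0.55 ± 0.039 SE on the log2 scale, adjusted p = 5.2e-12). The rare SLC31A2 was lower, at -0.67, and SOD1, the copper and zinc superoxide dismutase, higher, at 0.28 on the log2 scale.

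Of 10 heavy-metal and proteotoxic stress genes, 4 were higher and 4 lower, with a median log2 fold change of -0.18. The higher genes included the cystine importer SLC7A11 (1.31 ± 0.048 SE on the log2 scale, adjusted p = 4.8e-18), the heme oxygenase HMOX1 (1.00 ± 0.065 SE on the log2 scale, adjusted p = 9.8e-13) and the thioredoxin reductase TXNRD1 (0.28), and the lower genes the chaperones HSPH1 (-0.61) and DNAJB1 (-0.46) and the glutathione synthesis subunit GCLM (-0.34). In the interaction at 24 h, 5 of the 10 were lower, beside 2.98% of all genes, SLC7A11 at -0.83 ± 0.079 (SE, adjusted p = 4.7e-08), HSPA1B at -0.55 and HSPH1 at -0.28 among them. SLC7A11 was called higher at 24 h than at 0 h in both lines, so its value stands for a smaller rise in C/EBPδ-inducible cells. HSPH1 was called lower in both lines, and HSPA1B in C/EBPδ-inducible cells alone. HSPA1B may share reads with its near-identical copy HSPA1A.

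Of 7 tested glucocorticoid response genes, DUSP1 (0.62) and SGK1 (0.24) were higher and KLF9 (-0.77) and FKBP5 (-0.67) lower at 24 h, and the glucocorticoid receptor gene NR3C1 was lower in the interaction at 24 h (-0.42). The list's median log2 fold change between the lines was -0.00089.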
